A study of Mus musculus with 2 samples.

Results

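A set of 9 transcription factor genes that steer the fate of monocytes and macrophages was compared between 2 cultures of mouse bone marrow cells. The genes, with the RefSeq transcript of their probe, were Spi1 (NM_011355), Maf (NM_001025577), Klf2 (NM_008452), Klf4 (NM_010637), Bhlhe40 (NM_011498), Id2 (NM_010496), Nr4a1 (NM_010444), Bach1 (NM_007520) and Mitf (NM_001113198). They were found as the probes on both arrays whose RefSeq accession belongs to one of these genes, which gave 10 probes for 9 of the 20145 genes named on the array. Mitf had 2 probes and each of the other 8 genes had 1. Marrow cells of C57BL/6 mice were cultured for 4 days in medium holding 5% FBS and GM-CSF at 40 ng/ml, which makes marrow progenitors grow into granulocytes and macrophages, either alone (GM-CSF ONLY) or with 40 ng/ml IL-6 added (GM-CSF + IL-6), an inflammatory cytokine that acts through STAT3. The labels call the cells that form MDSCs (myeloid-derived suppressor cells), which are immature and dampen T cell responses, and the comparison asks what IL-6 adds to GM-CSF in them. Each culture gave 1 total RNA sample on 1 Agilent array, so there were no replicates, no test was possible and no p-value is given.

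PU.1, the ETS factor that Spi1 encodes, is the master regulator of myeloid commitment and opens the enhancers of monocytes and macrophages. Other factors then set the kind and state of the cell: c-Maf (Maf) favours the resting, self-limiting macrophage, KLF4 is needed for inflammatory monocytes, KLF2 holds myeloid activation in check, and NR4A1 is needed for patrolling monocytes. ID2 blocks the DNA binding of E proteins, BHLHE40 is a transcriptional repressor, BACH1 represses heme and antioxidant genes until heme releases it, and MITF drives genes of osteoclasts, mast cells and lysosomes.

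Of the 9 genes, Mitf and Maf were lower with IL-6. Mitf had a log2 ratio (GM-CSF + IL-6 minus GM-CSF ONLY) of -0.36 on one probe and -0.34 on the other, and Maf had -0.32. Spi1 and Nr4a1 were slightly higher, with log2 ratios of 0.16 and 0.14, and Klf2, Klf4, Bhlhe40, Id2 and Bach1 had ratios between -0.07 and -0.01, each within 2 technical SDs of 0. No member reached 2-fold. In these bulk cultures, fewer cells of a type and less RNA per cell cannot be told apart.

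The signals printed here are the scanner's processed intensities, scaled so that both arrays share the same 75th percentile. The technical SD is the spread of log2 ratios between spots of probes printed several times on the arrays. It was 0.04 to 0.06 for signals above 593.1, 0.09 between 166.8 and 593.1, and 0.23 below that. Differences between labelling reactions or cultures are not in it, and each of the 10 probes was a single spot. All 10 probes were well above background on both arrays, none was saturated, and none lay in the 9 areas of the array crowded with differing spots or in its outermost rows and columns. An area of 16 by 12 spots counted as crowded when it held at least 4 probes without a gene name whose signals were 2-fold apart. Over the whole arrays, 57.9% of probes were well above background with IL-6 and 59.1% without.

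**Figure D1:**
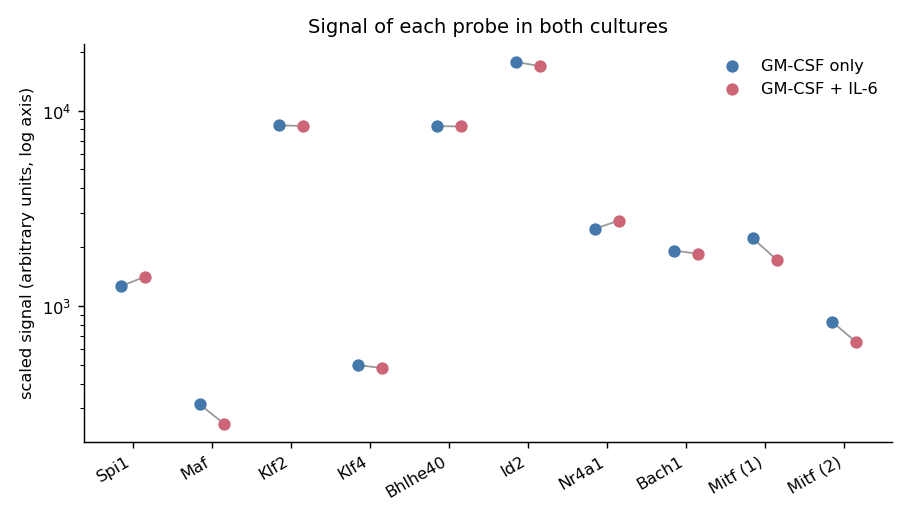
Scaled signal of each of the 10 probes (vertical log axis, arbitrary units) in the GM-CSF only culture (blue) and the GM-CSF + IL-6 culture (red), 1 array each, with a grey line joining the same probe. Mitf (1) and Mitf (2) are its 2 probes. The lines slope down for Maf and both Mitf probes, up slightly for Spi1 and Nr4a1, and are nearly flat for the other 5 genes; heights of different probes are not comparable.

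Mitf was the member with the lowest log2 ratio. Its brighter probe had a signal of 1724 with IL-6 and 2217 with GM-CSF only, or 0.778 times as much (log2 ratio -0.36 ± 0.06, technical SD). Its second probe had 655.8 with IL-6 and 832.9 without, or 0.787 times as much (-0.34 ± 0.06). The 2 probes stood in distant parts of the array and differed by 0.02 in log2 ratio. Over the 1923 genes with exactly 2 measured probes above the lowest 25% by signal, the 2 ratios of a gene differed by 0.09 in the median and by 0.24 at the 90th percentile. Probes brighter than the 75th percentile around the Mitf spots, in tiles of 16 by 12 spots, had median log2 ratios of -0.02 (46 spots) and 0.02 (49 spots).

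Both Mitf probes carry the same RefSeq accession, NM_001113198, so these values do not separate the gene's transcripts, which start at several promoters. RefSeq's promoter table (GRCm38.p6) lists 3 starts for Mitf. The 250 bases before each are shown because Mitf had the lowest log2 ratio here, and those of Nr4a1 because it had the highest ratio among the members the table holds. Capitals mark matches, on either strand, to 7 searched motifs: TTCNNNGAA (STAT), GAGGAA (PU.1 core), CACGTG (E-box), CCACCC (KLF), TGCTGA (MAF), TGCGTCA (AP-1-like) and TGACGTC (cyclic AMP response element, CRE). The last 2 were added after the sequences were seen.
Mitf, start 1, chr6:97806808-97807057, plus strand: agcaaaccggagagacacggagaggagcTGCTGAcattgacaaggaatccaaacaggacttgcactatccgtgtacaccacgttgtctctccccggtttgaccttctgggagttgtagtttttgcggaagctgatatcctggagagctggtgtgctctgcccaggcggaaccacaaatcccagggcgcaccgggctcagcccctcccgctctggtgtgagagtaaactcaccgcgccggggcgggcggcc
Mitf, start 2, chr6:97929567-97929816, plus strand: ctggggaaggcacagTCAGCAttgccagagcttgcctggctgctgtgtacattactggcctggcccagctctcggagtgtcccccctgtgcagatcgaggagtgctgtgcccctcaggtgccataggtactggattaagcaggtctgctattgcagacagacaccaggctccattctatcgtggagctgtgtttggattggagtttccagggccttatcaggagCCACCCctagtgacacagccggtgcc
Mitf, start 3, chr6:97991533-97991782, plus strand: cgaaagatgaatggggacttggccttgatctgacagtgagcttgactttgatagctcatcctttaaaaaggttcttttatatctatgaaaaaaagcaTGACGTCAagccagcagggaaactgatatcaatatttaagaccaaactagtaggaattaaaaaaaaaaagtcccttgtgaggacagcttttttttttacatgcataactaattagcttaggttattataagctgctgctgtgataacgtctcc
Nr4a1, chr15:101266596-101266845, plus strand: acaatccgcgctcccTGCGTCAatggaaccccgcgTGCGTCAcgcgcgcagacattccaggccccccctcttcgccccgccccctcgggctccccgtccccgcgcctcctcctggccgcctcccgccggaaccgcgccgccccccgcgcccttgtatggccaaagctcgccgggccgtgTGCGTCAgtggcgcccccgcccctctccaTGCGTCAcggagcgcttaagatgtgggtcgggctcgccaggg

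The 3 Mitf windows differ in composition, with 59.6%, 58.0% and 36.0% G and C. Windows 1 and 2 hold the MAF letters once each, which 16.1% of all 32851 promoter windows of this length hold, and window 2 also holds the KLF letters (28.1% of all). Window 3 holds the CRE letters, read on both strands of 1 palindrome (2.78% of all). The Nr4a1 window, with 74.4% G and C, holds the AP-1-like letters 4 times, beginning 235, 215, 71 and 42 bases before the start, and 1.75% of all windows hold them at least once. The CRE and AP-1-like letters were chosen after these windows were seen, so their shares do not show that these matches are unusual. Of the 9 genes, 6 matched the table, in 8 windows. None of the 8 windows holds the STAT letters (7.02% of all) or the PU.1 core (23.2% of all), while 1 holds the E-box (Klf4, 6.02% of all), 3 the KLF letters (Klf2, Id2 and Mitf) and 3 the MAF letters (Bach1 and Mitf). A match is a description of letters, not a bound site. Spi1, Maf and Bhlhe40 were not matched.

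Maf had a signal of 250.5 with IL-6 and 313.6 with GM-CSF only, or 0.799 times as much (log2 ratio -0.32 ± 0.09). Before scaling, the mean brightness of its spot was 255.8 over a local background of 58 with IL-6 and 340.3 over 56 without. Maf was thus the dimmest member and rested on 1 spot. With normexp background correction its log2 ratio was -0.22. That setting starts from the mean brightness and local background of each spot, not from the processed intensity. It also adds an offset of 50 to each signal, which draws the ratios of dim spots towards 0. The Maf relative Mafa had a log2 ratio of 0.21 ± 0.05. The small MAF genes Maff, Mafg and Mafk had 0.18, -0.13 and -0.02 (the other Mafg probes gave 0.02 and -0.06).

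Spi1 had a signal of 1409 with IL-6 and 1265 with GM-CSF only, or 1.11 times as much (log2 ratio 0.16 ± 0.06, and 0.09 with normexp). Nr4a1 had 2736 with IL-6 and 2484 without (0.14 ± 0.05). These differences were 2.5 and 2.7 times the technical SD, but close to the SD of log2 ratios over genes of like signal (0.13 for 1745 genes around Spi1 and 0.12 for 1628 genes around Nr4a1). Of those genes, 8.02% had a higher ratio than Spi1 and 8.35% a higher ratio than Nr4a1. The same reading gave 0.66% and 0.978% of genes of like signal with a lower ratio than the brighter and the dimmer Mitf probe, and 2.64% for Maf. Genes of like signal were those within 0.5 on the log2 scale, and these shares describe the 2 arrays only.

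The Kruppel-like factors hardly differed. Klf2 had signals of 8337 with IL-6 and 8396 without (log2 ratio -0.01 ± 0.04), and Klf4 481.7 and 498.7 (-0.05 ± 0.09). The helix-loop-helix genes were similar. Bhlhe40 had 8287 with IL-6 and 8325 without (-0.01 ± 0.04), and Id2 had 16898 and 17698 (-0.07 ± 0.04). For Bach1 the signals were 1852 and 1922 (-0.05 ± 0.06). Over the other processing settings Klf4 ran from -0.09 to -0.04, Id2 from -0.14 to -0.06 and Bach1 from -0.11 to -0.01. Klf2 and Bhlhe40 kept their sign in only 2 of the 6 settings that altered their values. In the authors' matrix the Klf2 ratio was 0. With the 75th percentile scaling these 5 differences were smaller than 2 technical SDs, which does not show that the genes were equal in the 2 cultures.

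**Figure D2:**
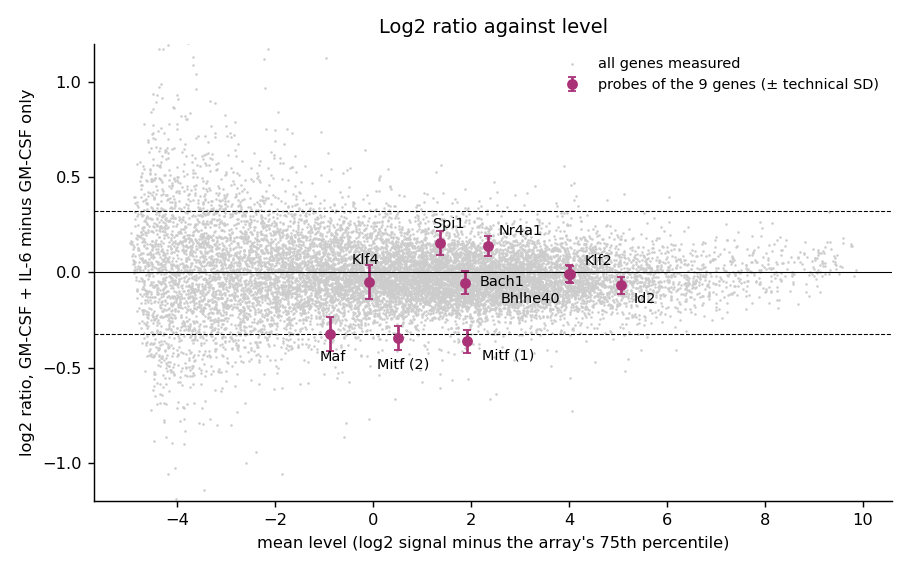
Log2 ratio (GM-CSF + IL-6 minus GM-CSF only, vertical axis) against mean level (log2 signal minus the array's 75th percentile, horizontal axis). Grey points are the 13843 genes measured on both arrays, with 38 outside the vertical range; purple points are the 10 probes of the 9 genes with technical SDs, and dashed lines mark log2 ratios of 0.32 and -0.32. Maf lies on the lower dashed line, both Mitf probes lie below it, and the other 7 probes lie between the lines.

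The median log2 ratio of the 9 members was -0.05, with 2 of 9 above 0 and 7 below, and the median of the 13843 genes measured on both arrays was -0.02, with 56.2% below 0. A log2 ratio of 0.322 or more either way was used as a small size limit. By it, 2 of 9 members were lower with IL-6, Mitf and, only just, Maf (-0.324), against a background of 3.55% of all genes and 1.38% of genes outside the lowest 25% by signal, where all 9 members lay. By the same limit 0 of 9 were higher, against 4.17% and 1.24%. The members and the limit were chosen with earlier results of these data known, so these comparisons describe the values and test nothing. At 2-fold, 0 members were higher, against 0.282% of all genes and 0.00963% outside the lowest 25%, and 0 were lower, against 0.101% and 0%.

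**Figure D3:**
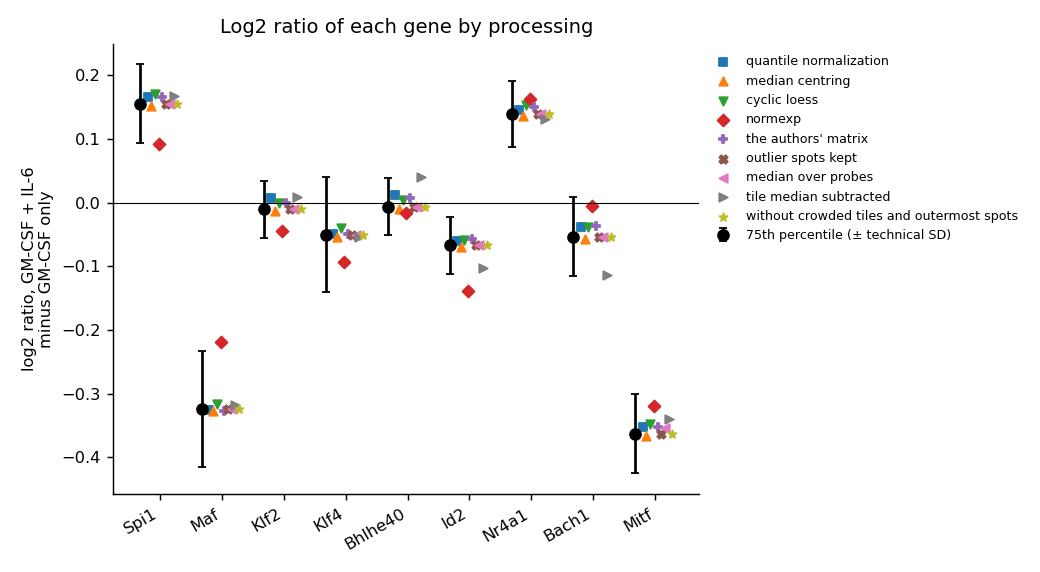
Log2 ratio of each of the 9 genes (vertical axis) with the 75th percentile scaling (black, ± technical SD) and under 9 other processing settings (coloured symbols). Mitf stays between -0.37 and -0.32 and Maf between -0.33 and -0.22, Spi1 and Nr4a1 stay above 0, and Klf2 and Bhlhe40 lie on both sides of 0.

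The close relatives of the 9 genes also differed little. Of 32 listed relatives with a probe, 25 were measured on both arrays, 11 above 0 and 14 below, with a median of -0.03 and a range from -0.33 to 0.60. Past the limit of 0.322 were Klf11 (-0.33 ± 0.23) on the lower side and Bhlhe41 (0.60 ± 0.23, signals of 62.95 and 41.55) on the higher, both at low signal. Of all genes measured, 3.55% passed the limit on the lower side and 4.17% on the higher. The MITF relatives Tfeb, Tfec and Tfe3, of which TFEB and TFE3 govern lysosome genes, had 0.13, 0.03 and -0.20 (the Tfe3 spot was at the array's edge and its other probe gave -0.05). Nr4a2 had -0.10, with -0.32 on its other probe, and Nr4a3, at low signal, -0.03. Bach2 had -0.04, with 0.23 on its other probe. Id1 and Id3 had 0.13 and -0.08, and the PU.1 relative Spib -0.08. Klf7 had -0.19, Klf5 0.18 and Klf6 -0.15.

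Partners and opponents of the members were all measured, 7 of 17 above 0 and 10 below, with a median of -0.05. Past 0.322 were 2 genes, both higher, against 4.17% of all genes on that side and 1.24% outside the lowest 25% by signal. Cebpa, a granulocyte and monocyte factor that works with PU.1, had signals of 2897 with IL-6 and 2310 without (log2 ratio 0.33 ± 0.05), and Egr1, a factor of macrophage differentiation, had 10543 and 8284 (0.35 ± 0.04). Irf8, the PU.1 partner of monocytes and dendritic cells, had -0.11 and Gfi1, a repressor that favours granulocytes, -0.14. The E protein genes Tcf3, Tcf4 and Tcf12, whose products ID2 binds, had 0.03, 0.06 and -0.29. Each has a second probe with the opposite sign, at -0.05, -0.29 and 0.18. Jun, an AP-1 subunit, had 0.19, and Nfe2l2, which encodes the NRF2 activator that BACH1 opposes, had -0.16.

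Genes linked to each factor were read from lists that are not limited to its direct targets. Of all genes measured, 56.2% lay below 0. Few listed genes passed 0.322, a limit that 3.55% of all genes passed on the lower side and 4.17% on the higher. Outside the lowest 25% by signal, 1.38% and 1.24% of genes passed it. For PU.1, 0 of 16 measured genes did, 4 lay above 0 and 12 below, with a median of -0.07; Cybb, an NADPH oxidase subunit, had 0.20 ± 0.04 and Csf1r, the M-CSF receptor, -0.25 ± 0.04, with -0.20 and 0.26 on its other probes. Msr1, a scavenger receptor, had -0.28 ± 0.06 (-0.19 on its other probe) and Fcgr1, an Fc receptor, -0.23. For MITF, whose list holds osteoclast and macrophage genes and no mast cell markers, 0 of 8 did, with a median of -0.03. Of these 8 genes, 2 lay above 0 and 6 below. Acp5, the osteoclast acid phosphatase, had signals of 6932 with IL-6 and 8613 without (-0.31 ± 0.04, and -0.34 on its other probe). Oscar, an osteoclast receptor, had 0.20. Clcn7 and Atp6v0d2, which acidify lysosomes, had -0.12 and -0.13 (-0.23 on the other Atp6v0d2 probe). For c-Maf, 0 of 7 did, 3 lay above 0 and 4 below, with a median of -0.05. Selenop had -0.24, Stab1, a scavenger receptor, -0.05, and the complement genes C1qa, C1qb and C1qc -0.09, -0.17 and 0.02. F13a1 had 0.01 (-0.19 on its other probe), and Gas6, in the lowest 25% by signal, had 0.31 ± 0.23. Il10, Cd163 and Folr2 of the same list were not well above background on both arrays.

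For KLF2 and KLF4, 1 of 10 measured genes passed 0.322, with 5 above 0 and 5 below. It was Retnla, a gene of alternatively activated macrophages, with signals of 1166 with IL-6 and 1607 without (log2 ratio -0.46 ± 0.06). In the same list Mrc1, the mannose receptor, had 0.27 and Arg1 -0.06. Nos3, the endothelial nitric oxide synthase, had 0.25 (0.09 on its other probe) and Cdkn1a, the cell cycle inhibitor p21, 0.22 (-0.05 on its other probe). For BACH1, 0 of 10 did. Below 0 lay 9 of 10, against 56.2% of all genes measured, with a median of -0.10. Values ran from -0.26 for Nqo1, whose probe lay in a crowded area, to 0.05 for Ftl1. Gclc and Fth1 had -0.01 each, and Mafg had -0.13, with 0.02 and -0.06 on its other probes. The glutathione genes Gclm and Slc7a11 had -0.19 and -0.21, and over the other settings Nqo1 ran from -0.30 to -0.11 and Slc7a11 from -0.28 to -0.11. Hmox1, the heme oxygenase gene and a classic target of BACH1, had -0.07 ± 0.04, and -0.15 on its other probe. The patrolling monocyte genes linked to NR4A1 had a median of -0.10, 2 of 8 measured above 0 and 6 below. Cx3cr1, the fractalkine receptor, was the 1 gene of this list past 0.322. It had -0.58 ± 0.09, with -0.58 on its dimmer probe, and -0.59 to -0.34 over the other settings. Its signals were low, 167.9 with IL-6 and 251.4 without. Cd36 had -0.20, Spn -0.13 (-0.31 on its other probe), Gngt2 -0.11 and Itgal -0.09 (-0.17 on its other probe).

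The immediate early genes, to which Nr4a1 belongs, had the highest median of the 10 related lists. It was 0.08 (0.08 to 0.12 over the other settings), with 8 of 14 measured above 0 (43.8% of all genes) and 6 below, and 3 were past 0.322, all higher. Of all genes measured, 4.17% passed that limit on the higher side and 3.55% on the lower. Outside the lowest 25% by signal, 1.24% and 1.38% did. Egr1, 1 of the 3, was also counted among the partners. Zfp36, which destabilises cytokine mRNAs, had signals of 2199 with IL-6 and 1622 without (log2 ratio 0.44 ± 0.06), Ier2 had 0.35 ± 0.06, Junb 0.24 and Egr1 is given above. Dusp1 had -0.18, Fos -0.09 and Atf3 -0.11. The Zfp36 and Dusp1 probes lay in crowded areas of the array, and at least 1 of the 10 Fos spots in its outermost rows or columns. Of the clock genes that BHLHE40 can repress, 3 of 9 measured lay above 0, with a median of -0.04; Tef had -0.24, Per1 -0.04, Cry2 -0.02 and Dbp 0.08 (-0.10 on its other probe), and those past 0.322 (Bhlhe41 higher, Nr1d2 and Cry1 lower) were in the lowest 25% by signal.

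**Figure D4:**
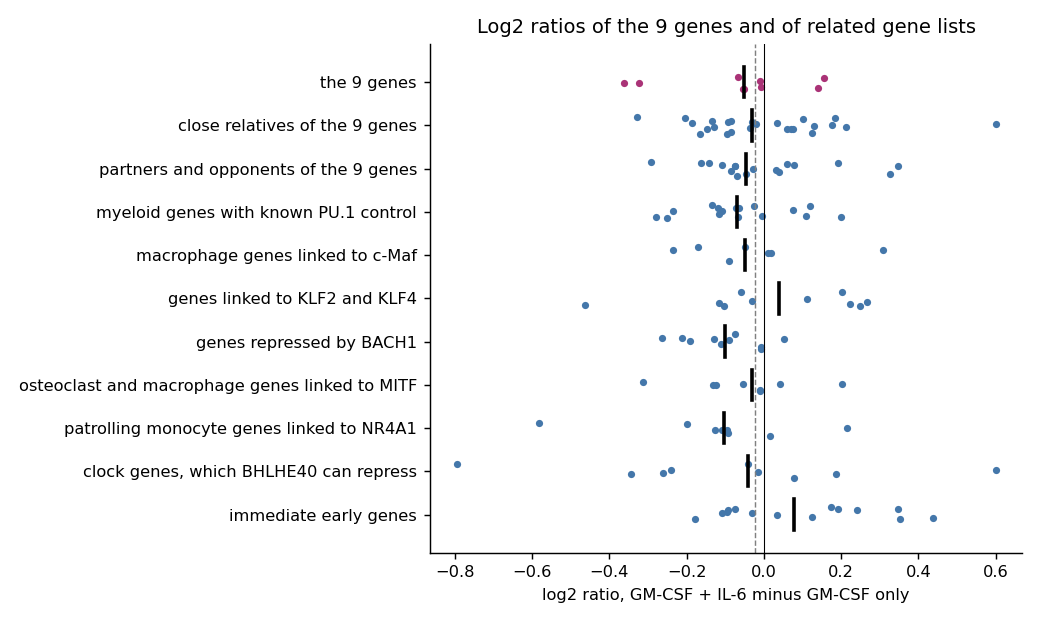
Log2 ratios (GM-CSF + IL-6 minus GM-CSF only, horizontal axis) of the 9 genes (purple) and of each measured gene of 10 related lists (blue), with a black bar at each median and a dashed line at the median of all genes, -0.02. The list medians lie between -0.10 and 0.08, with that of the immediate early genes highest; vertical scatter within a row has no meaning.

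Markers of the cell types in these cultures were read beside these values. All 6 general myeloid markers with a probe were measured on both arrays. Itgam had a log2 ratio of 0.12 (0.22 and -0.05 on its other probes), S100a8 0.09 and S100a9 0.14. Ly6c1 had 0.01 (-0.13 on its other probe) and Arg1 -0.06. Nos2, the inducible nitric oxide synthase of suppressive myeloid cells, had -0.31 ± 0.04. Ly6g and Ly6c2 were not analysed here. Beside the lower Maf, the 6 of 9 macrophage markers measured summed to a signal of 16280 with IL-6 and 16965 without, with a median of -0.03, and Cd163, Vsig4 and Timd4 were not measured on both arrays. Adgre1, a surface receptor of macrophages, had -0.08, and 0.02 on its other probe. The 4 of 5 listed classical monocyte markers measured summed to 76833 and 91602. Of these, 4 of 4 lay below 0, against 56.2% of all genes measured, with a median of -0.23. Most of that difference was Csf1r, whose 3 probes, given above, differ in sign. Mgst1 had -0.29, Vcan -0.21 (-0.35 and 0.02 on its other probes) and Ccr2 -0.07. All these sums add probes whose heights are not comparable, so the brightest probes weigh most in them. Beside the lower Mitf, the 5 of 6 osteoclast markers measured summed to 10914 and 12724, with Calcr not measured and a median of -0.05. Most of that difference was Acp5; Mmp9 had -0.12 over 10 spots, at least 1 of them in a crowded area, Ctsk -0.05, Dcstamp 0.04 and Ocstamp 0.09. Also beside the lower Mitf, the 8 of 9 mast cell and basophil markers measured summed to 85931 with IL-6 and 76468 without. Their log2 ratios lay above 0 in 8 of 8, against 43.8% of all genes measured, with a median of 0.20, and Cma1 was not measured. Tpsb2 had 0.42 (-0.11 on its other probe), Ms4a2 0.28, Kit 0.20 and Mcpt8 0.20. Prss34 had 0.15, Cpa3 0.11 and Fcer1a 0.02 ± 0.06, and Mcpt4, in the lowest 25% by signal, had 0.30 ± 0.23. The medians of the other marker lists were -0.03 for 9 neutrophil genes, -0.12 for 7 dendritic cell genes, -0.04 for 5 B cell genes, -0.10 for 4 T and NK cell genes, 0.35 for 2 erythroid genes and 0.38 for 4 stromal genes. The last 2 medians rest on dim probes. In the lowest 25% by signal were 3 of the 4 stromal genes (Sparc at 1.48, Col1a2 at 0.53 and Col1a1 at -0.13) and Hba-a1 (0.69). Lepr had 0.24 (0.65 on its other probe), and Gata1, on a crowded spot at the edge, had 0.02. Among the neutrophil genes, 3 of 9 lay above 0 and 6 below. Mmp8 had -0.25, Cxcr2 -0.20, Camp -0.18 (-0.20 on its other probe) and Csf3r 0.11. Mpo and Elane had 0.08 and 0.09, and Ltf, Retnlg and Ngp -0.05, -0.03 and -0.01. Among the dendritic cell genes, Ccr7 had -0.27, Flt3 -0.12, Siglech -0.05 (0.03 on its other probe) and Batf3 0.05. Among the lymphoid genes, Cd79a had 0.19, Ebf1 -0.09, Cd79b -0.04, Ms4a1 -0.01, Cd3d -0.22, Lck -0.04 and Cd3e -0.01. The part of any of these cell types in the Maf and Mitf values was not tested.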

How the data were processed

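The 2 cultures, 1 per treatment in the labels, were each hybridised to 1 Cy3 Agilent array, per the labels. The deposited intensities were written, per the file headers, by version 10.7.1.1 of Agilent's extraction software. The authors' series matrix holds log2 values whose sorted columns differ by at most 0.00136, with both medians at 5.10, so they are quantile-normalized and not centred per gene.

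Each processed intensity was put on the log2 scale and the array's 75th percentile of non-control spots (486.2 with IL-6, 549.7 without) was subtracted. Outlier spots were left out, and a probe was measured when at least 50% of its spots were well above background. A gene took its brightest measured probe. Accessions were named through a RefSeq table of GRCm38.p6. Technical SDs came from 266 probes that had 5 or more usable spots, in 5 level bins. Normalizations used limma 3.58.1 in R 4.3.3, and the rest Python 3.11.15 with numpy 2.4.6 and pandas 2.3.3. The functions were tested on simulated data, and 9 other settings were run on each member. The members, lists and size limits were chosen with earlier results of these data known. Some genes of the lists are not reported here and are not in the lists' counts or medians. All members and up to 4 genes per list, those with the largest ratios outside the lowest 25% by level, were named by rule; the others named were chosen after their values were seen.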

Additional observations from a re-analysis of the deposited data

How the results depend on the processing

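With 1 array per condition, neither a replicate error nor a test exists, and Maf was the dimmest member. The 9 other settings were normexp (with an added offset of 50), cyclic loess, quantile normalization, median centring, the authors' matrix, outlier spots kept, the median over probes, the tile median subtracted, and crowded tiles and outermost spots left out. Normexp started from the mean brightness and local background of each spot, not from the processed intensity. The median of the 9 genes stayed between -0.05 and -0.04. Of 81 recomputed log2 ratios, 26 repeat the value because the setting did not touch that gene's spots or probes. Of the other 55, 51 moved by less than the technical SD and 4 by more: with normexp Spi1 moved to 0.09, Maf to -0.22 and Id2 to -0.14, and with the tile median subtracted Bhlhe40 moved to 0.04. Among the settings that altered them, Klf2 and Bhlhe40 kept their sign in only 2 of 6 each, with Klf2 at 0 in the authors' matrix. The other 7 genes kept theirs in all. Maf stayed past the limit of 0.322 in 3 of 6 and Mitf in 6 of 7. Of 71 list genes named by rule, 8 changed sign in at least 1 setting (Batf3, Cd3e, Cd79b, Cry2, Ctsk, Dbp, Gata1 and Ms4a1). Counts over all genes (39 higher and 14 lower at 2-fold, 577 and 492 at 0.322) depended on dim probes. Normexp gave 3 and 0 at 2-fold and 300 and 125 at 0.322. Without a filter on dim probes there were 510 and 341, and 1764 and 1547. Without the lowest 25% by level there were 1 and 0, and 129 and 143. Without crowded tiles and outermost spots 6 genes were lower at 2-fold. The cause was not tested beyond the fewer or more genes that each filter leaves. No paired analysis was possible because there was a single array for each culture.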
